A study of Mus musculus with 19 samples.

Results

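The interval probes are the array's probes for stretches of the mouse genome that its design names by position instead of by gene. They were chosen as every non-control probe whose name in the scanner files starts with a chromosome, and they numbered 16194 of 55681 non-control probes, against 39487 other probes. Their names give 3543 distinct intervals of build mm9, or 4610 counted with the letter F or R that ends a name and is read here as the strand. Only 13 probes, of 3 intervals, carried no letter, and they were left out of strand comparisons. F ended the names of 8171 probes and R those of 8010. Median interval length was 7304 bases, with quartiles of 786.5 and 21807 bases, a shortest interval of 62 bases, a longest of 7128487 and a second longest of 538251. Of the 3543 intervals, 2101 (59.3%) overlapped at least 1 other, so probes of different names can report on the same bases. An interval strand held 3 probes in 1810 cases, 5 in 975, 10 in 147 and 1 in 690. Probes of 1 interval share their target and are not replicates of a dose. The genes, exons or sequences that lie in these intervals were not analysed here.

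The RNA came from livers of 19 male mice of the transgenic strain 40.6, aged 10 weeks. Animals had received dibenz[a,h]anthracene (DB[a,h]A), a polycyclic aromatic hydrocarbon, and livers were taken 3 days later. There were 5 control animals at 0 mg/kg, 5 at 6.25 mg/kg, 4 at 12.5 mg/kg and 5 at 25 mg/kg, and all groups shared the transgenic background. Each animal had 1 array, with liver RNA in Cy5 (red) and a purchased universal mouse reference RNA from 11 cell lines in Cy3 (green). The dyes were never swapped, so dye and RNA source cannot be told apart in a liver over reference ratio, whereas a change between doses compares livers with each other. In whole liver, fewer cells of a type and less RNA per cell cannot be told apart either.

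Much of the mammalian genome outside protein-coding genes is transcribed, and part of it yields long intergenic noncoding RNAs. These RNAs are as a class less abundant and more tissue-restricted than messenger RNAs. Arrays can carry probes for a candidate interval on both strands where the direction of transcription is not known beforehand. On this array 1067 of 3543 intervals (30.1%) had probes of both strands. The files do not say how these intervals were picked.

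All 8 hepatocyte markers on a list of liver cell types were kept, with control liver 7.01 to 8.57 above the reference on the log2 scale (Alb, Apoa1, Ttr, Apoc3, Fgb, Cyp2e1, Cps1 and Tat). Among the other lists, 5 of 6 macrophage, 5 of 5 endothelial and 5 of 5 stellate markers were kept. So were 4 of 5 lymphocyte, 3 of 4 cholangiocyte, 2 of 3 erythroid and 2 of 4 pancreas markers. None of the 34 kept markers passed at 25 mg/kg. The arrays sat on 3 slides, and slide 1, which held 2 controls and 1 array of each dose, was scanned 7 days after the others. Slide accounted for a median of 36.8% of the variance of an interval probe and dose for 12.2%, against 42.3% and 12.9% for other probes. These shares are not corrected for the number of groups, and groups unrelated to the values would give shares above 0 too. Such shares would be larger for dose than for slide, as dose has more groups. The dose share is therefore not read as an effect of dose.

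Liver RNA gave signal at fewer interval probes than the reference RNA did. A probe was counted as having signal on an array when the scanner software marked most of its spots as well above background. The share of interval probes with liver signal ran from 15.6% to 40.2% over the 19 arrays, with a median of 26.8%, and the reference share from 37.2% to 66.2%, with a median of 48.7%. Other probes had liver signal at 42.1% to 62.0% and reference signal at 61.6% to 78.2%. On every one of the 19 arrays the interval share was below that of other probes in both channels, and below in liver than in reference.

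The control livers gave signal at 26.8%, 22.5%, 16.2%, 33.9% and 40.2% of interval probes. At 6.25 mg/kg the shares were 28.7%, 31.0%, 24.0%, 21.4% and 37.0%, and at 25 mg/kg they were 32.3%, 28.0%, 23.5%, 18.8% and 39.9%. The 4 arrays at 12.5 mg/kg gave 27.2%, 17.3%, 15.6% and 18.0%. All 4 groups overlapped. The mean share was 27.9% ± 9.43 (SD) over the 5 controls and 28.4% ± 6.12 over the 5 animals of the lowest dose. It was 19.5% ± 5.23 over the 4 of the middle dose and 28.5% ± 8.13 over the 5 of the highest. The means differed by less than the SD of the controls, but that SD also holds differences between slides. Within slides, 12.5 mg/kg had the lowest share on slide 1 (18.0%, 1 array) and slide 2 (mean 16.4%). On slide 3 the control was lowest (26.8%, against 27.2% at 12.5 mg/kg). A change of this share with dose was not tested. The arrays sorted by slide: 4 of the 5 on slide 1 reached 33.9% to 40.2%, those on slide 2 gave 15.6% to 24.0% and those on slide 3 gave 26.8% to 32.3%. The exception on slide 1 was 12.5 mg/kg replicate 4, at 18.0%. Its reference share, 54.8%, was also the lowest on that slide.

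**Figure D1:**
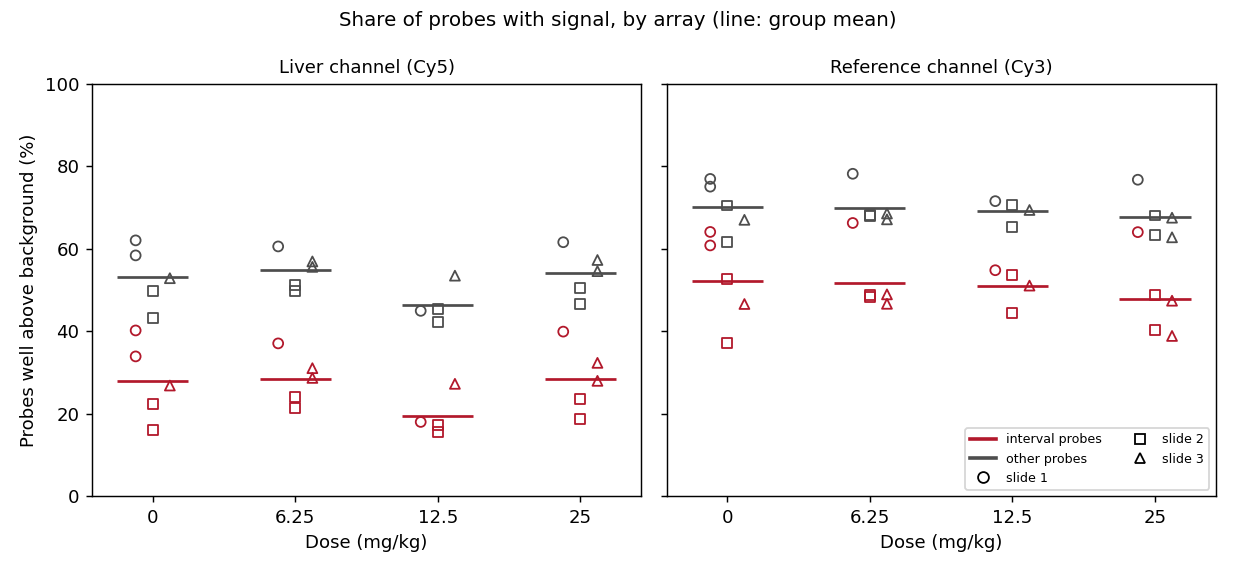
Share of probes well above background in the liver and the reference channel on each of the 19 arrays, by dose (mg/kg), for interval probes and all other probes; marker shapes give the slide and lines the group means. Interval probes run from 15.6% to 40.2% in liver and lie below the other probes on every array, and 12.5 mg/kg replicate 4 lies apart from the other arrays of slide 1.

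Over all arrays, 5828 interval probes (36.0%) had liver signal on 4 or more arrays, as many as the 12.5 mg/kg group holds, and were kept for the dose comparisons. Over all non-control probes 52.8% did. Liver signal was present on every array at 1775 interval probes and on no array at 7160 (44.2%, against 28.3% of other probes). Reference signal on at least 4 arrays was present at 10174 interval probes (62.8%), against 72.2% of all probes. Among those without liver signal, 2807 interval probes (17.3% of all interval probes, against 13.2% of all probes) had signal in neither channel on any array. Reference signal on at least 4 arrays was also present at 5711 of the 5828 kept interval probes, a share like that of all kept probes (28788 of 29415). In the other direction, 418 interval probes (2.58%, against 2.95% of all probes) had reference signal on every array and liver signal on none.

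The probes of an interval often differed. Of 3385 interval strands with 3 or more probes, 1018 had no probe with liver signal, 2039 had some and 328 had all. At 70 of them all probes had liver signal on every array.

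The share of interval probes with liver signal on at least 4 arrays varied modestly over the genome. It was highest on chromosome 17 (43.0%), 19 (42.2%), 5 (41.5%) and 14 (41.4%), and lowest on X (27.9%), 13 (28.6%) and 10 (29.9%). Reference shares ran from 56.1% on chromosome 10 to 70.2% on 19, so chromosome X, lowest in liver, had a reference share of 61.4%. By length, liver signal was found for 31.9% of probes in intervals up to 1 kb, 36.5% at 1 to 3 kb, 37.7% at 3 to 10 kb, 37.1% at 10 to 30 kb, 36.6% at 30 to 100 kb and 30.8% over 100 kb. The lowest shares were thus in the shortest and the longest class, and the shortest class also had the lowest reference share (57.3%). F probes had liver signal at 34.9% and R probes at 37.1%, with reference signal at 60.3% and 65.4%. These shares are over probes that share intervals and arrays, and no test was made on them.

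**Figure D2:**
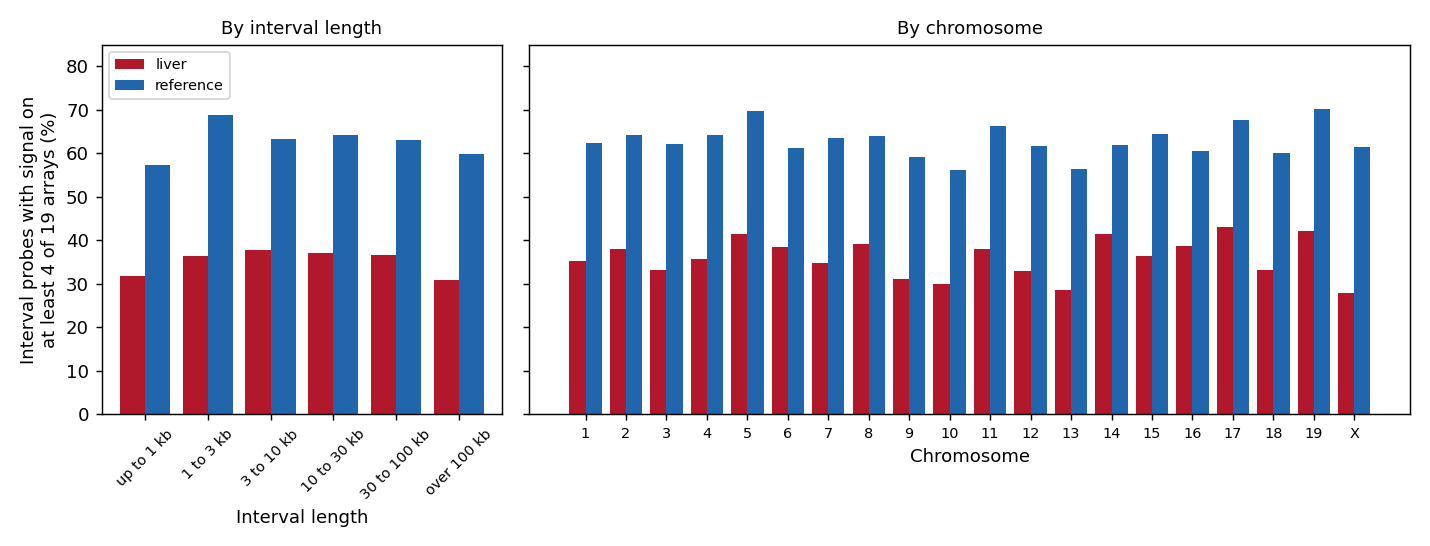
Percent of interval probes with signal on at least 4 of 19 arrays in liver and in reference, by interval length and by chromosome. Liver bars run from 27.9% on X to 43.0% on chromosome 17, and from 30.8% (over 100 kb) to 37.7% (3 to 10 kb) by length, each below the reference bar beside it.

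A few interval probes had liver signal with little in the reference. Liver signal on at least 4 arrays with reference signal on none was found at 39 interval probes (0.241%, against 0.512% of other probes). Liver signal on all 19 arrays with reference signal on at most 3 was found at 7 interval probes (0.0432%, against 0.269% of all probes), of which 4 belonged to 1 interval strand, chr10:39659425-39674200 R. All 5 probes of that strand had liver signal on all 19 arrays, and they had reference signal on 0, 3, 2, 18 and 0 arrays. Of its 5 ratios, 4 have almost no measured denominator, so their level is not given as a fold. The remaining 3 probes were chr6:40693617-40720167 R, chr8:126268510-126290810 R and chr16:86770170-86874921 R, with reference signal on 1, 1 and 0 arrays.

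Where both channels could be read, control liver lay above the reference more often than below it at interval probes. The 2172 interval probes with signal in both channels on all 5 control arrays had a median log2 ratio of 0.47, and the 15873 other probes one of 0.01. The 19 array medians of those interval probes lay between 0.35 and 0.51. At least 2-fold higher liver signal, with every control array above 0, was found at 500 interval probes (23.0%); over all 18045 probes measured so, 21.3% were. At least 2-fold lower liver signal, with every control array below 0, was found at 128 interval probes (5.89%), against 17.6% of all probes. The share higher in liver was thus near the background, and the share lower was well under it. Interval probes were dimmer, with a median log2 intensity over both channels of 8.24 against 10.05 for other probes. Probes lacking liver signal on any control were not counted here. On at least 4 arrays interval probes had liver signal less often than reference signal (36.0% against 62.8%). The part of brightness, dye or this filter in the ratio was not tested. With the log ratio of the scanner software the higher count was 810 (37.3%, against 26.1% of all probes) and the median 0.69. On that scale the share higher in liver was above the background.

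The highest ratio was at chr6:40693617-40720167 F, at 6.03, 5.71, 5.34, 7.30 and 6.82 on the 5 control arrays (mean 6.24 ± 0.81, SD, n = 5), or 75.6-fold liver over reference. All 5 probes of that strand had liver signal on 19 arrays, and the second with reference signal in every control had a mean of 5.81. Probes of chr6:40699474-40719122 F, which lies inside it, had means of 6.04 and 5.57, so the same stretch was read by 2 names.

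At chr4:135896689-135918414 R, an interval of 21726 bases, 1 probe gave 5.81, 6.23, 6.09, 6.21 and 6.01 (mean 6.07 ± 0.17, n = 5). It was the only 1 of 10 R probes with signal in both channels in all controls. Liver signal on at least 4 arrays was present at 4 of the 10.

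Both probes of chr17:32035750-32056000 R were high, with means of 6.05 ± 0.75 and 5.60 ± 1.28 (n = 5). The nested chr17:32044823-32045974 R had measured means of 5.25 and 5.12. Control replicate 3 was lowest at both strands, with 4.94 and 3.39 at the first and 4.01 at the 5.25 probe.

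The last high probes were chr11:117792051-117811334 R (5.43 ± 0.53) and chr10:87541696-87547421 R (5.16 ± 0.49). The second measured probe of the chromosome 10 strand, at 4.76, lay near the first. On chromosome 11 the second measured probe was at 1.40, far from the first. The 10 highest probes thus came from 7 interval strands, and 2 pairs of those strands overlap.

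The lowest ratio was at chr17:95150800-95180650 F, at -4.41, -3.98, -3.63, -4.64 and -4.89 (mean -4.31 ± 0.50, n = 5), which is 19.8-fold lower in liver. Next came 5 probes from 5 chromosomes. They were chr1:52706748-52712402 R (mean -3.70 ± 0.25), chr12:52950465-52950990 R (-3.65 ± 0.35), chrX:102222494-102267068 R (-3.61 ± 0.39), chr11:97457180-97487074 R (-3.51 ± 0.33) and chr5:92548501-92566401 F (-3.27 ± 0.36). At these 5 probes control replicate 1, the only control on slide 3, was the lowest of the 5 controls, with values of -4.07, -4.12, -4.22, -4.03 and -3.79. The slide 3 arrays of every dose were low at the X probe, at -4.30 to -4.02 against -3.75 to -3.17 on the other slides. At the chromosome 12 probe they were at -4.48 to -4.01 against -3.92 to -3.14. Control replicate 4, on slide 1, was the highest control at 4 of the 5 probes, with -3.14, -3.17, -3.13 and -2.84. It was at -3.53 on chromosome 1, where replicate 3 was highest at -3.51. Neighbouring probes did not share the low ratio where they could be measured: the highest ratio was 0.86 in the chromosome 12 strand, 0.66 in the chromosome 11 strand and 1.30 in the chromosome 5 strand.

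The other 4 of the 10 lowest were chr19:5771425-5848475 R (-3.23 ± 0.23), chr11:35805295-35817263 F (-2.71 ± 0.20), chr1:193815525-193825775 F (-2.66 ± 0.45) and chr4:116791819-116798263 R (-2.63 ± 0.19). None of the 20 probes named for a high or low ratio passed at 25 mg/kg in limma, where their log2 changes ran from -0.68 to 0.47.

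Most intervals with liver signal that were probed on both strands had it on both. Of 1067 intervals probed so, 574 had liver signal on both strands, 172 on F alone, 208 on R alone and 113 on neither. Among intervals with signal on either strand, 60.2% had it on both (574 of 954, Wilson 95% interval 57.0% to 63.2%, for counting error over intervals only). That interval takes the genome intervals as independent, though they share arrays and in part overlap. This share depends on the array limit, and with signal required on every array it was 26.1% (144 of 551). Among 327 intervals with 5 probes on each strand, where neither strand had more chances, the counts were 180, 57, 66 and 24 in the same order. Signal on both strands also arises where each strand is often detected by itself. Whether the strands went together more often than that was not tested. Of 2473 intervals probed on a single strand, 1401 had liver signal.

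The liver over reference ratios of the F and R probes of an interval often differed. In 181 intervals both strands had probes with signal in both channels on every control array. The median absolute difference between the strands' mean log2 ratios was 0.52, 86 intervals differed by under 0.5 and 50 (27.6%) by at least 1. Liver, reference and probe cannot be told apart in such a difference. Both strands were above 0 in 131 intervals, both below in 9 and on opposite sides in 41. Pearson's r between strands over the 181 intervals, which share arrays and in part overlap, was 0.15, given as a description. Probes on 1 strand of an interval were closer to each other, with a median SD of 0.22 over 198 strands of 3 or more measured probes, against an SD of 1.02 over all measured interval probes.

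The ratios of the F and R probes differed most at chr4:135896689-135918414, with means of 0.61 on F and 6.07 on R, a 44.2-fold difference between the ratios. Next were chr17:32035750-32056000 (0.64 on F, 5.83 on R) and chr10:87541696-87547421 (0.32 on F, 4.96 on R). At chr17:95150800-95180650 the low side was F (-4.31, against 0.09 on R). At chr19:5771425-5848475 it was R (-3.23 for 1 probe, against 0.68 over 9 F probes). In all 5 of these the strand near the reference level lay between 0.09 and 0.68, and the other strand far from it. Each of the 5 rests on 1 measured probe on at least 1 of its strands, so strand and probe cannot be told apart there. The 5 intervals with the smallest difference, all under 0.03 on the log2 scale, covered several levels. Both strands were at 0.41 or 0.42 at chr14:65431652-65437902, at -1.18 and -1.19 at chr2:167085700-167117795 and at 1.29 and 1.28 at chr14:115423660-115463160. At chr2:181650800-181669350 F was at 0.06 and R at 0.07, and at chr1:38886199-38892924 F was at 0.90 and R at 0.87.

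**Figure D3:**
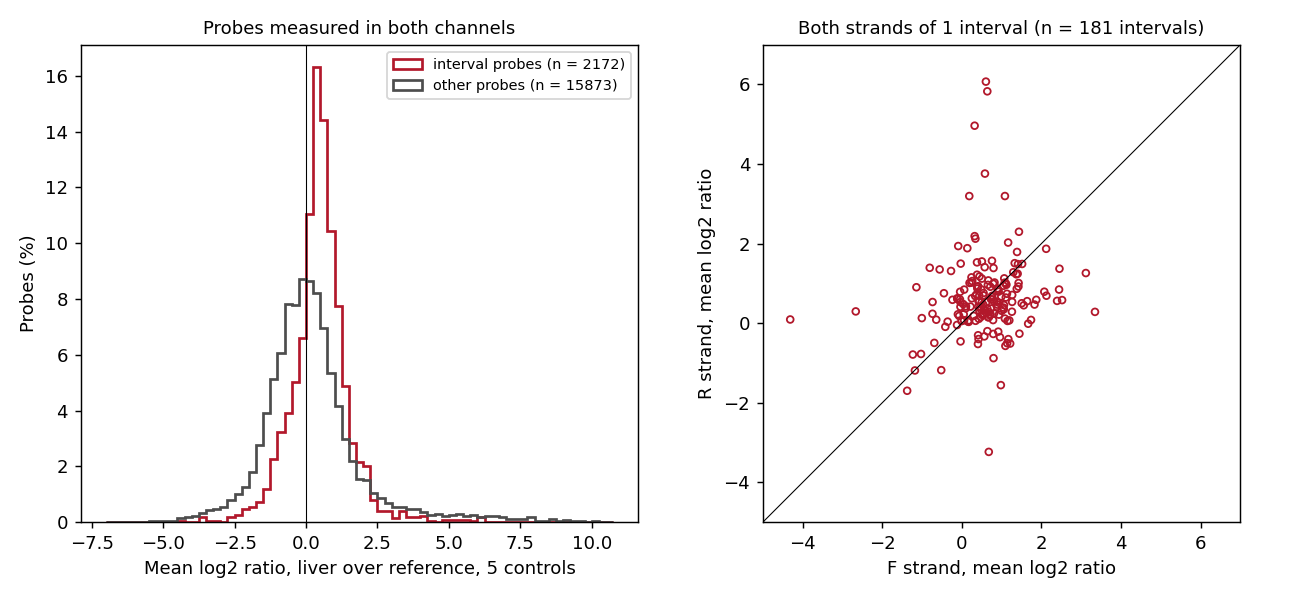
On the left, the distribution of the mean log2 ratio of liver over reference in the 5 controls for 2172 interval and 15873 other probes measured in both channels, as percent of probes; on the right, the mean ratio on the F strand against that on the R strand for 181 intervals, with the line of equality. The interval probes centre at 0.47 and have a short lower tail, and the intervals with the largest strand differences lie along the axes with 1 strand near 0.

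Few interval probes passed the test for a change with DB[a,h]A dose. In limma over all 19 arrays, with p-values adjusted over 29415 probes, 1 of 5828 interval probes passed an adjusted p of 0.05 at 25 mg/kg against control, and 0.0578% of all probes did. None passed at 12.5 mg/kg (0% of all probes), at 6.25 mg/kg (0%), for any dose (0.0102%) or for the dose trend (0.0204%). Unadjusted p was under 0.05 at 334 interval probes at 25 mg/kg (5.73%, against 7.37% of all probes). The counts were 195 at 12.5 mg/kg (3.35%, against 4.21%), 325 at 6.25 mg/kg (5.58%, against 5.57%), 233 for any dose (4.00%, against 5.08%) and 238 for the trend (4.08%, against 5.87%). All these shares are near or under the background. By interval length, from the shortest class to the longest, the unadjusted share at 25 mg/kg was 7.70%, 4.42%, 4.57%, 6.51%, 5.16% and 3.07%, with no steady order and each near or under the 7.37% of all probes. The median log2 change of the interval probes was -0.02 in each dose comparison, and that of all probes at 25 mg/kg was -0.02.

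With slide as a block in the limma fit, 19 interval probes passed at 25 mg/kg (11 up, 8 down), against 0.809% of all probes. In that fit 0 passed at 12.5 mg/kg (0.0068% of all probes) and 0 at 6.25 mg/kg (0%), while 2 passed for any dose (0.0748%) and 8 for the trend (0.241%). At 25 mg/kg the median standard error over interval probes was 0.10 in that fit, and 0.14 in the one lacking the block. The values of the 3 comparisons share the 5 control arrays.

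The interval probe that passed lies in chr2:158169020-158191295 R, an interval of 22276 bases. Its log2 ratios in controls were -0.86, -0.72, -0.87, -1.10 and -1.08. At 25 mg/kg they were -0.32, -0.24, -0.24, -0.27 and -0.44. All 5 treated values lay above all 5 controls. It rose by a log2 change of 0.62 (SE 0.11, 1.54-fold, limma adjusted p = 0.0418), and by 0.59 with slide as a block (adjusted p = 0.0151).

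Within slides 1, 2 and 3 the change was 0.65, 0.54 and 0.58. At 6.25 mg/kg the values were -0.58, -0.61, -0.94, -0.51 and -0.50, and at 12.5 mg/kg -0.40, -0.75, -0.82 and -0.76. Both of these groups overlapped the controls, with changes of 0.30 and 0.24 that did not pass.

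The call was close to the threshold. Over 22 settings (slide as a block, no background subtraction, the deposited log2 ratios and each array left out) its change ran from 0.58 to 0.67 and its limma adjusted p from 0.0151 to 0.150, and it passed in 9. Leaving out 1 array ended the call for 12 of the 19 arrays: control replicates 1, 3, 4 and 5, 6.25 mg/kg replicates 2 and 4, 12.5 mg/kg replicates 2 and 4, and 25 mg/kg replicates 1 to 4. It was also lost with the deposited log2 ratios (0.59, limma adjusted p = 0.0598). Without slide 1, a setting outside those 22, the change was 0.55 (limma adjusted p = 0.0999). With the log ratio of the scanner software, also outside them, it was 0.67 (limma adjusted p = 0.0472).

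Of the 10 R probes of that interval, 7 were kept. Their changes at 25 mg/kg were 0.62, 0.59, 0.43, 0.37, 0.20, 0.00 and -0.10, so 6 were above 0 and 1 below, with 1 of the 6 near 0. The probe at 0.59 had values of -0.91, -0.91, -1.24, -0.93 and -0.85 in controls and -0.27, -0.50, -0.42, -0.21 and -0.47 at 25 mg/kg. Its groups did not overlap either, and its limma adjusted p was 0.101, or 0.0249 with slide as a block.

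**Figure D4:**
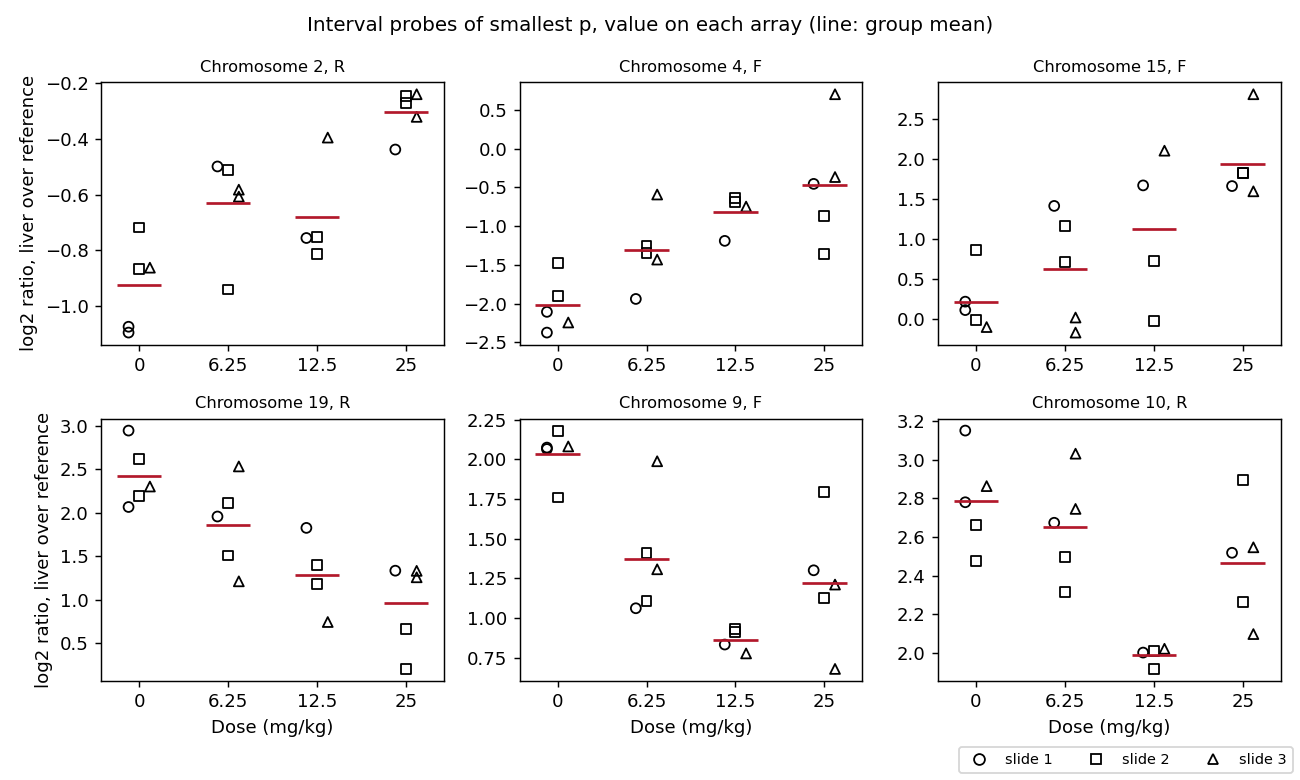
Log2 ratio of liver over reference on each array by dose (mg/kg) for 6 of the interval probes named by their small p, each on its own scale; marker shapes give the slide and lines the group means. The probe on chromosome 2 has all 25 mg/kg arrays above all controls, and those on chromosomes 9 and 10 are lowest at 12.5 mg/kg.

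At chr4:149445201-149445902 F, an interval of 702 bases, all 3 probes were kept. One had control values of -2.24, -1.90, -1.47, -2.10 and -2.37 and values of -0.37, 0.70, -0.87, -1.36 and -0.45 at 25 mg/kg, and the groups did not overlap. Its log2 change at 25 mg/kg was 1.55 (SE 0.30, 2.93-fold, limma adjusted p = 0.0562), and 1.43 with slide as a block (adjusted p = 0.0235). Its means were -2.02 in controls, -1.31 at 6.25 mg/kg, -0.81 at 12.5 mg/kg and -0.47 at 25 mg/kg, each above the one before. Liver signal was well above background on only 2 of 5 control arrays and 4 of 5 at 25 mg/kg, so its control level is poorly measured. Another probe, at 0.94 (limma adjusted p = 0.200), also had liver signal on 2 of 5 controls. The remaining probe had none on the 5 controls and signal on all 5 arrays at 25 mg/kg, so no fold is given for it.

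At chr15:58985008-58985429 F, 422 bases long, all 3 probes were kept too. One had control values of -0.10, -0.01, 0.87, 0.22 and 0.11 and values of 2.81, 1.60, 1.82, 1.83 and 1.66 at 25 mg/kg, which did not overlap. Its change was 1.73 (SE 0.37, limma adjusted p = 0.0973, and 0.0359 with slide as a block). Liver signal was present on 2 of 5 controls and 5 of 5 arrays at 25 mg/kg, and reference signal on 7 of 19 arrays, so both its control level and its denominator are poorly measured and no fold is given. The other probes had liver signal on 0 of 5 controls, and on 5 and 3 of the 5 arrays at 25 mg/kg.

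At chr19:36699712-36763966 R, of 64255 bases, 1 probe had a lower mean at each dose than in controls. Its control values were 2.30, 2.19, 2.61, 2.95 and 2.07, and those at 25 mg/kg were 1.26, 1.33, 0.66, 0.20 and 1.33. The groups did not overlap, and the change was -1.47 (SE 0.27, limma adjusted p = 0.0516, and 0.0211 with slide as a block). At 12.5 mg/kg the change was -1.14 and at 6.25 mg/kg -0.56, which did not pass. The second kept probe of the strand had a log2 change of -0.28 at 25 mg/kg and the remaining probe had liver signal on 0 arrays, so the larger value was seen by 1 probe of 3.

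The smallest p at 12.5 mg/kg was at chr9:56910620-56919667 F, of 9048 bases. Controls were at 2.08, 2.18, 1.76, 2.07 and 2.07, and 12.5 mg/kg at 0.78, 0.93, 0.91 and 0.83. At 25 mg/kg the values were 0.68, 1.21, 1.12, 1.79 and 1.30, of which the highest overlapped the controls. The change was -1.17 at 12.5 mg/kg (SE 0.19, 2.25-fold lower, limma adjusted p = 0.0661, and 0.0515 with slide as a block) and -0.81 at 25 mg/kg (adjusted p = 0.101, and 0.0421 with the block). The second kept probe of the strand had changes of 0.01 and 0.03, and the other 3 probes had liver signal on at most 1 array.

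At chr10:39659425-39674200 R, the strand seen in liver with almost no reference signal, the probe with a measured reference was at 2.86, 2.66, 2.48, 3.15 and 2.78 in controls. It was at 2.02, 2.01, 1.92 and 2.00 at 12.5 mg/kg, below every control. The change was -0.80 (SE 0.16, limma adjusted p = 0.292), and -0.32 at 25 mg/kg. The other 4 probes of the strand had log2 changes of -0.54 to -0.73 at 12.5 mg/kg, against a reference near background. With slide as a block 1 of them, with reference signal on 3 arrays and a change of -0.64 at 12.5 mg/kg in that fit, passed the F test over the doses (adjusted p = 0.0242).

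Among the other interval strands of small p at 12.5 mg/kg, where none passed, the single probe of chr9:78104935-78116974 F had a log2 change of -0.54. Those of the 2 probes of chr16:77670599-77691642 F were -0.53 and -0.45, and the first had liver signal on 2 of 4 arrays at that dose. At 6.25 mg/kg chr3:45163252-45179177 R had a log2 change of -1.10 on 1 probe and -0.20 on the second kept one.

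At chr1:52507332-52514490 R, 3 of 4 probes were kept, with changes of like size. The probe of smallest p was at 0.29, 0.05, 0.22, 0.11 and 0.15 in controls, 0.52, 0.53, 0.57, 0.69 and 0.75 at 6.25 mg/kg and 0.83, 0.67, 0.50, 0.70 and 0.47 at 25 mg/kg. Neither dose overlapped the controls, whereas 12.5 mg/kg did (0.57, 0.31, 0.27 and 0.05). Its changes were 0.45 at 6.25 mg/kg (limma adjusted p = 0.702) and 0.47 at 25 mg/kg (adjusted p = 0.0973, and 0.0352 with slide as a block). The 3 probes had changes of 0.34 to 0.45 at 6.25 mg/kg and of 0.36 to 0.47 at 25 mg/kg.

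At chr17:87674225-87682154 R 1 of 4 kept probes had a log2 change of 0.42 at both 6.25 and 25 mg/kg (limma adjusted p = 0.109 at 25 mg/kg, and 0.0253 with slide as a block), and the other 3 had changes of 0.13 to 0.26 at 25 mg/kg. At chr17:56687541-56694616 F 1 probe had a log2 change of -0.64 at 6.25 mg/kg (limma adjusted p = 0.416), with treated values of 1.31 to 1.75 against 1.83 to 2.44 in controls. The second kept probe of that strand had a change of -0.12, and the other 3 probes had liver signal on 0 arrays. Of the 10 F probes of chr19:5771425-5848475, all kept, 1 had a log2 change of -0.61 at 6.25 mg/kg and the other 9 had changes of -0.20 to 0.19. That probe also had the highest control ratio of the 10 (2.31, against 0.08 to 1.17).

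**Figure D5:**
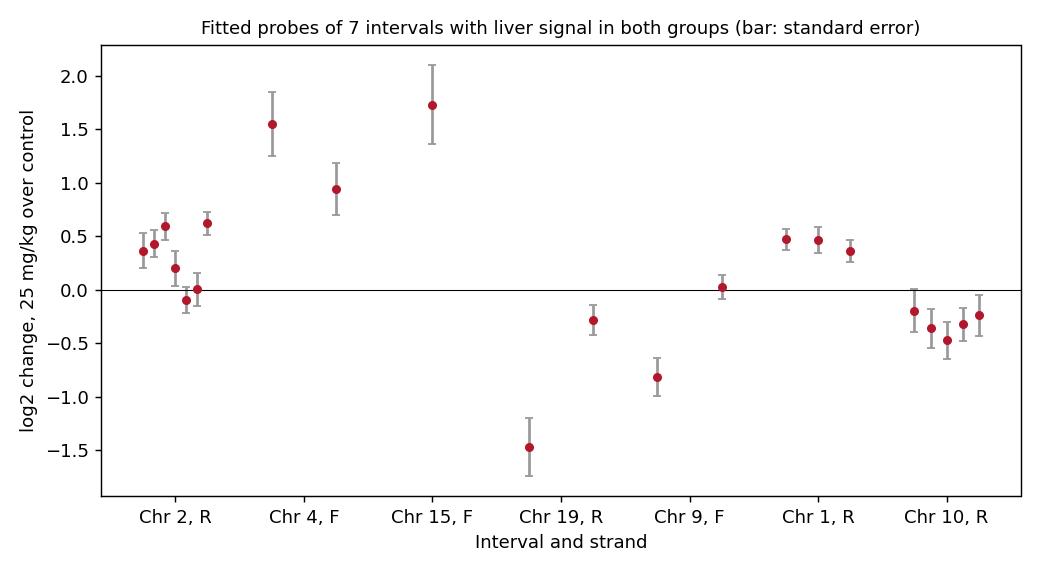
Log2 change at 25 mg/kg over control, with its standard error, for the fitted probes with liver signal in both groups of 7 interval strands. Probes agree in sign on chromosomes 1, 4 and 10. On chromosome 2 changes near the largest are shared by some probes of the strand only. On chromosomes 9 and 19 the largest change is at 1 probe, though both kept probes on chromosome 19 are below 0.

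Across all interval strands with 3 or more kept probes (751), the median SD of the change at 25 mg/kg among probes of 1 strand was 0.11, against 0.20 over all 5828 kept interval probes.

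Annotated long noncoding RNA genes gave a comparison list. Of 50 such genes, 30 had a probe named through RefSeq accessions, 24 were kept and none passed in any of the 5 comparisons, nor at 25 mg/kg with slide as a block. At 25, 12.5 and 6.25 mg/kg 15, 12 and 14 of the 24 had a log2 change above 0, with medians of 0.07, -0.02 and 0.06 against -0.02, -0.02 and -0.01 over all fitted probes. The 4 of smallest p at 25 mg/kg were Kcnq1ot1 and the small nucleolar RNA host genes Snhg7, Snhg3 and Snhg1. Kcnq1ot1, the imprinted antisense RNA of the Kcnq1 locus, had 2 kept probes, of which 1 is given here. That probe had a log2 change of -0.51 (SE 0.19, limma adjusted p = 0.456). Its log2 ratios ran from -1.21 to -0.36 at 25 mg/kg against -0.56 to 0.24 in controls. The changes were 0.36 for Snhg7 (limma adjusted p = 0.589), 0.22 for Snhg3 (0.718) and 0.23 for Snhg1 (0.737). Each of these 3 overlapped the controls.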

How the data were processed

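Per spot, the deposited scanner files give the median intensity of both dyes and of the background around it, and flags for signal well above background and for outliers, as Feature Extraction 10.7.3.1 wrote them per the file headers. They also hold the log10 ratio of red over green signals that the software had background subtracted and dye normalised, per the file headers. The deposited value table holds log2 ratios, made by steps not given in the sources used here. Its columns correlated at 0.992 to 0.996 with loess values computed here with no background subtraction.

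Median signals were corrected by normexp (offset 50) and normalised by loess within each array in limma 3.58.1 under R 4.3.3, with control spots weighted 0. Outlier spots (0.623% of values) were set missing and spots of a probe averaged. A probe was kept where over 0.5 of its spots were well above background in liver on at least 4 arrays, and was fitted where at most 2 arrays lacked a value. Doses were compared by limma's lmFit and eBayes over 19 arrays, two-sided, with Benjamini-Hochberg adjustment over 29415 probes and a threshold of 0.05. The script was tested on simulated data. Each array is 1 animal, per the labels. The number of arrays limits the precision.

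Named probes were those passing a comparison, otherwise its 5 of smallest p, the 10 highest and 10 lowest control ratios, and the 5 intervals whose strands differed most and least. The 50 noncoding genes are named if they passed, otherwise the 4 of smallest p at 25 mg/kg. Members, lists and rules were chosen with earlier results of these data known. Alternatives were slide as a block, 3 other signal scales, 2 other filters, each array left out, and, added after seeing the data, slide 1 left out, probes of a strand averaged and the scanner log ratio for the control ratio. No probe sequence and no annotation of mm9 was used here.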

Additional observations from a re-analysis of the deposited data

Results flagged for a closer look

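In 10 of 92 groups of 4 or 5 arrays 1 value lay far from the others, by the size of its gap over the group's range. Chance alone gives about 1 in 20. At 6.25 mg/kg replicate 5, on slide 1, had reference signal at 66.2% of interval probes and 78.2% of other probes, above the other 4 arrays (46.6% to 48.9% and 67.1% to 68.5%).

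For the chr2:158169020-158191295 R probe that passed, 6.25 mg/kg replicate 3 was low, with a log2 ratio of -0.94 against -0.61 to -0.50, and 12.5 mg/kg replicate 1 was high, with -0.40 against -0.82 to -0.75. Neither group enters its difference at 25 mg/kg, though both enter the estimate of its spread. At chr15:58985008-58985429 F 25 mg/kg replicate 1 was high, at 2.81 against 1.60 to 1.83. Control replicate 3 was low at chr9:56910620-56919667 F (1.76, against 2.07 to 2.18) and at a probe of chr17:32035750-32056000 R (3.39, against 5.69 to 6.52).

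At chr9:78104935-78116974 F 25 mg/kg replicate 4 was high (3.03, against 2.78 to 2.84). At chr16:77670599-77691642 F 6.25 mg/kg replicate 1 was high (1.47, against 1.08 to 1.18) and 12.5 mg/kg replicate 3 low (0.63, against 0.80 to 0.81).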

How the results depend on the processing

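At 25 mg/kg the count of interval probes that passed was 1, and 19 with slide as a block, 3 with the scanner software's log ratio, 2 with liver signal required on every array, and 0 with the deposited log2 ratios or without slide 1. Leaving out each array gave 0 to 4 (4 without 6.25 mg/kg replicate 1), and 0 in 11 of 19 fits. At 12.5 mg/kg the count was 0, and 1 with liver signal on every array, and 0 to 1 over arrays left out (1 without 6.25 mg/kg replicate 1 or 25 mg/kg replicate 4, as for any dose). For any dose it was 0, and 2 with the slide block, 1 with the scanner log ratio, and 0 to 1 over arrays left out. For the trend it was 0, and 8 with the slide block, 2 without slide 1, 1 with the probes of a strand averaged, and 0 to 7 over arrays left out (7 without 6.25 mg/kg replicate 5). At 6.25 mg/kg it was 0 under each of these settings. Liver signal was found at 5828 interval probes, at 9034 with 1 array enough, at 1775 with every array required, and at 5384 to 5823 over arrays left out. The share with signal on both strands was 26.1% with every array required. The count 2-fold higher in liver was 810 with the scanner log ratio (37.3%, against 26.1% of all probes). Of 535 other values for the 34 named probes, 494 kept their direction and call or, with no test, lay within the control SD, 16 newly passed, 13 no longer passed, 12 with no test moved by more than that SD, and 0 refitted values changed sign. The cause of these differences was not tested. Dim probes limit the ratios: only 2172 of 16194 interval probes had signal in both channels in all controls. No paired analysis was possible because the replicate numbers were given in accession order and pair no animals across doses.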
